A study of Homo sapiens with 4 samples.

Results

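The protein-coding homeobox genes of the HOXA, HOXB, HOXC and HOXD clusters were examined in RNA-Seq of HGC-27 cells with and without knockdown of USP47. Members were taken by symbol (HOXA, HOXB, HOXC or HOXD followed by a number, antisense transcripts left out), which gave 39 of the 63568 gene identifiers measured, 11 of them in HOXA, 10 in HOXB, 9 in HOXC and 9 in HOXD. HGC-27 is an established human gastric carcinoma line, and USP47 is a deubiquitinating enzyme whose loss was studied for its effect on cellular pathways. Poly(A) RNA was sequenced from 2 libraries of cells infected with lentivirus that carried a scrambled shRNA (Control shRNA) and 2 libraries of cells infected with lentivirus that carried an shRNA against USP47 (USP47 shRNA), so that infection was common to all 4 libraries. More than one USP47 shRNA is described for these cells, and the labels do not say which one each library carried. The design text also names a DMSO vehicle for control cells without saying which cells received it. The series calls the libraries biological duplicates, the methods speak of triplicates, and neither mentions separate infections for these libraries. The data analysed here held 2 libraries per group, so that the p-values measure the spread between these libraries, which may be technical.

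HOX genes encode homeodomain transcription factors that give cells their position along the head-to-tail axis of the embryo. Within each cluster the genes lie in the order in which they are switched on, from the low paralog numbers used towards the head (anterior) to the high numbers used in trunk, limb, hindgut and tail (posterior). Adult cells keep part of this pattern as a positional code, which Polycomb complexes hold silent and trithorax (MLL) complexes hold active, and HOX proteins bind DNA together with TALE-class homeodomain partners of the PBX, MEIS and PKNOX families. Here paralogs 1 to 3 are called anterior, 4 to 8 central and 9 to 13 posterior.

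The libraries held between 15649899 and 20140273 gene counts, of which between 7257 and 10422 were HOX counts. USP47 itself was read at 80.0 and 66.1 CPM (counts scaled to library sizes after TMM normalization) in the control libraries and at 36.0 and 21.5 CPM in the USP47 shRNA libraries, in order of replicate. It fell by 1.34 on the log2 scale (SE 0.212, adjusted p = 0.00362, quasi-likelihood test of edgeR, with p-values adjusted by Benjamini-Hochberg over 21932 genes), and the knockdown was deeper in USP47 shRNA replicate 2. Chi-square per degree of freedom between replicates was 4.75 for the control and 16.5 for the USP47 shRNA libraries, so the knockdown libraries differed more from each other than the controls did. Of 14 epithelial and gastric markers, only MUC1 reached 1 TPM (length-scaled transcript level) in both control libraries. CDH1 (E-cadherin) was at 0.181 and 0.128 TPM and KRT19 at 0 and 0.0280 TPM, so that the defining epithelial markers were absent or near 0 in cells labelled as gastric carcinoma. Of 8 mesenchymal markers, 7 reached 1 TPM, led by VIM (vimentin) at 137 and 122 TPM and COL1A1 at 133 and 126 TPM.

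HGC-27 control cells expressed HOX genes of all 4 clusters, with the posterior genes at the highest levels. In the control libraries 30 of the 39 HOX genes (76.9%) reached 1 TPM in both replicates, beside 59.5% of all protein-coding genes. By position these were 15 of 16 posterior, 11 of 15 central and 4 of 8 anterior genes. The median control level was 7.63 TPM for the posterior, 3.01 TPM for the central and 1.10 TPM for the anterior genes, and 8 of the 10 HOX genes with the highest control TPM were posterior. TPM values are per transcript length and therefore allow levels to be set side by side between genes, whereas CPM values below compare 1 gene between libraries.

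HOXA13, a gene of the distal limb and hindgut, had the highest HOX level, with 54.1 and 46.3 TPM in the control and 39.6 and 35.2 TPM in the USP47 shRNA libraries. In control cells it stood at percentile 96.3 of all protein-coding genes. HOXC10, a gene of lumbar and hindlimb identity, followed with 23.1 and 21.4 TPM in the control and 24.4 and 23.0 TPM in the USP47 shRNA libraries. The gap between these neighbours in the order was larger than the spread between replicates. HOXD10, a lumbar and hindlimb gene, was at 15.9 and 15.6 TPM in the control and 10.5 and 8.79 TPM in the USP47 shRNA libraries. HOXD13, a digit and urogenital gene, was at 13.8 and 12.1 TPM in the control and 10.6 and 9.08 TPM in the USP47 shRNA libraries. HOXC6, a thoracic gene, was at 13.2 and 11.7 TPM in the control and 17.1 and 14.5 TPM in the USP47 shRNA libraries. HOXD13 was above HOXC6 in each control library, by less than the difference between replicates, so that their values overlapped.

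The next 5 genes lay close together in control cells. HOXB7 was at 11.8 and 11.8 TPM in the control and 11.1 and 9.80 TPM in the USP47 shRNA libraries. HOXB9, a thoracic gene, was at 11.7 and 10.1 TPM in the control and 3.40 and 3.21 TPM in the USP47 shRNA libraries, which moved it from rank 7 to rank 16 of the HOX genes. HOXA11, a gene of the forearm and the uterus, was at 10.0 and 9.30 TPM in the control and 10.88 and 11.04 TPM in the USP47 shRNA libraries. HOXB7 was above HOXB9 in both control libraries, but only just in replicate 1 (11.75 and 11.65 TPM). HOXC11 and HOXC13, further down, changed order between the control libraries. HOXC11 was at 8.21 and 7.65 TPM in the control and 9.85 and 8.38 TPM in the USP47 shRNA libraries. HOXC13, a gene of hair and nail, was at 8.28 and 7.22 TPM in the control and 5.58 and 6.05 TPM in the USP47 shRNA libraries. At the other end, HOXB1 and HOXD1, both anterior genes, had no count in either control library and at most 2 counts in a USP47 shRNA library. HOXB2 had 3 and 5 counts in the control and 1 and 0 in the USP47 shRNA libraries, HOXC12 had 0 and 2 against 3 and 1, and HOXD4 had 4 and 9 against 9 and 7. These 5 genes had too few counts to be tested, and 3 counts or fewer do not tell a low level from none.

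**Figure D1:**
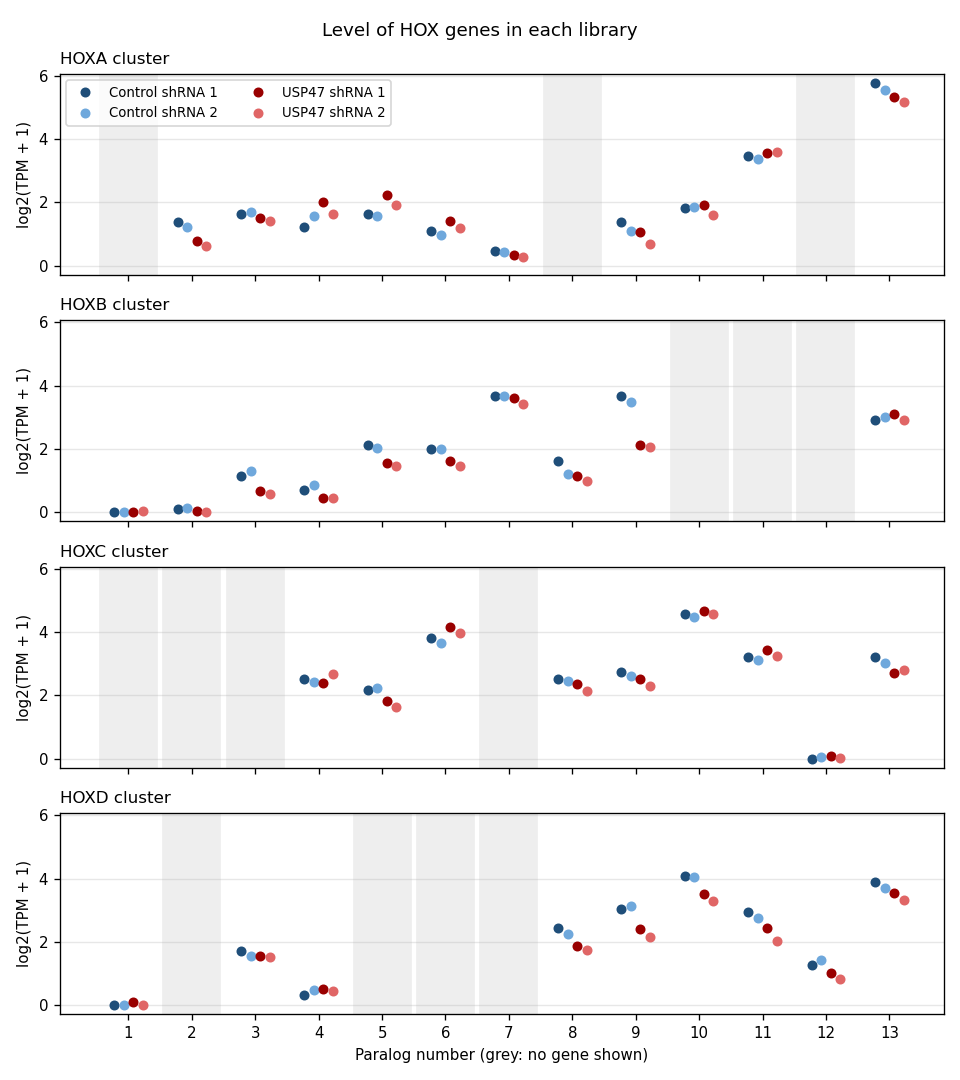
Level of 38 HOX genes in each of the 4 libraries, as log2(TPM + 1) against paralog number, with 1 panel per cluster and grey bands where no gene is shown. HOXA13 is the highest point of all panels at 54.1 and 46.3 TPM in the control libraries, and HOXB9 shows the widest gap between the blue control and the red USP47 shRNA points.

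Knockdown of USP47 went with lower levels of a number of HOXB and HOXD genes and with higher levels of a few genes at other places in the clusters. Of 34 HOX genes with enough counts for the test, 8 fell (HOXA2, HOXB3, HOXB5, HOXB9, HOXD8, HOXD9, HOXD10 and HOXD11) and 3 rose, among them HOXA5 and HOXC6. The 8 that fell were 23.5% of the tested HOX genes, beside 9.56% of all genes and 11.98% of protein-coding genes tested, and the 3 that rose were 8.82%, beside 6.52% and 8.60%. With all 4 libraries the share that fell was above the background and the share that rose was near it. The first did not stay above it in every fit that left a single library out. The log2 fold change was below 0 for 24 and above 0 for 10 of the 34, with a median of -0.27 against -0.01 over all genes tested. Both USP47 shRNA libraries lay below both controls for 20 HOX genes, beside 31.7% of all genes tested, and above both for 8, beside 29.3%, while 6 overlapped. HOX genes of 1 cluster share a chromatin neighbourhood, and they are not independent replicates of the comparison. In a bulk library, fewer cells that express a gene and less RNA per cell cannot be told apart.

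The counts over all genes moved with single libraries too. Without Control shRNA replicate 1, 3 HOX genes were lower (HOXB3, HOXB9 and HOXD9, or 8.82% beside 3.87% of all genes) and 0 higher (1.38% of all genes; at an unadjusted p under 0.05, 10 HOX genes lower and 2 higher). Without Control shRNA replicate 2, 1 was lower (HOXB9, or 2.94% beside 4.43%) and 1 higher (2.94% beside 1.79%). Without USP47 shRNA replicate 1, 6 were lower (17.6% beside 15.4%) and 7 higher (20.6% beside 16.6%). Without USP47 shRNA replicate 2, in which the knockdown was deeper, 14 were lower (41.2% beside 15.0%) and 4 higher (11.8% beside 12.4%). DESeq2 in place of edgeR called 4 lower (HOXB3, HOXB9, HOXD9 and HOXD10, or 12.5% beside 6.75% of all genes). It called 1 higher (HOXC6, or 3.12% beside 6.42%). HOXB9 was lower by every fit named here.

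**Figure D2:**
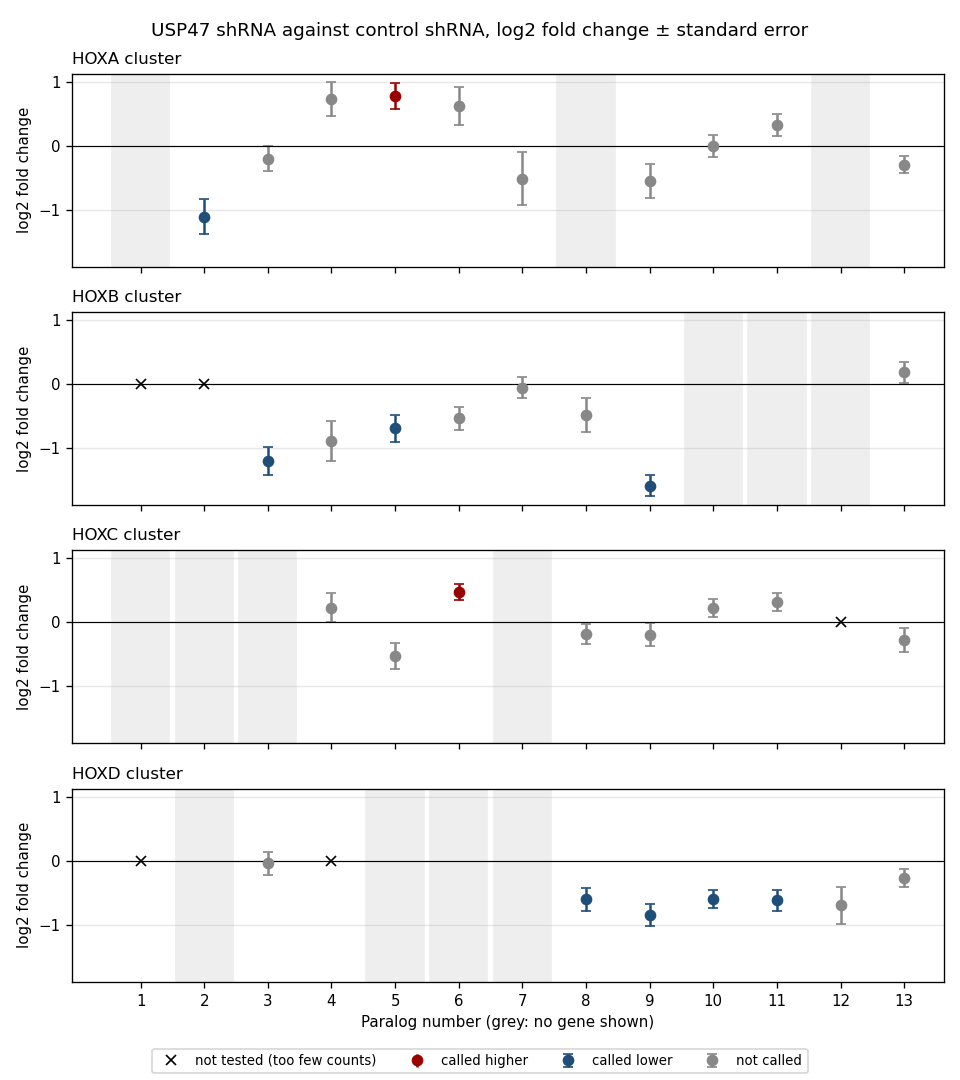
Log2 fold change of USP47 shRNA against Control shRNA for 38 HOX genes against paralog number, with bars of 1 standard error from edgeR's fit, blue for genes called lower, red for genes called higher, grey for genes not called and crosses (placed at 0) for genes with too few counts. All 7 tested HOXD genes and 7 of 8 tested HOXB genes lie below 0, from -1.59 for HOXB9 to -0.04 for HOXD3.

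The HOXB cluster held the HOX gene with the largest fold change, HOXB9. It was at 21.6 and 21.3 CPM in the control and 6.35 and 8.01 CPM in the USP47 shRNA libraries, and the groups were far apart. HOXB9 (chr17:46698518-46703720, minus strand, hg19) fell to 0.332 of its control level, a log2 fold change of -1.59 (SE 0.164, adjusted p = 0.000583). Its exons overlapped no exon of another gene in the annotation. HOXB3 (chr17:46626232-46682274, minus strand), an anterior gene of the hindbrain and neck, was at 6.13 and 8.41 CPM in the control and 3.03 and 3.34 CPM in the USP47 shRNA libraries. Both knockdown values were below both controls, and HOXB3 fell by 1.20 on the log2 scale (SE 0.217, adjusted p = 0.00641). HOXB5 (chr17:46668619-46671141, minus strand), known from the enteric nervous system, was at 4.72 and 4.84 CPM in the control and 2.69 and 3.28 CPM in the USP47 shRNA libraries. The groups did not overlap, and its log2 fold change was -0.69 (SE 0.207, adjusted p = 0.0461). Between these genes, HOXB4 (-0.89, adjusted p = 0.0791), HOXB6 (-0.54, adjusted p = 0.0619) and HOXB8 (-0.49, adjusted p = 0.238) had values below 0 without passing the threshold, and HOXB7 was at -0.06 (adjusted p = 0.835). HOXB13, the far posterior gene known from the prostate, was at 15.5 and 19.1 CPM in the control and 18.2 and 21.0 CPM in the USP47 shRNA libraries, which overlapped. The call of HOXB3 was lost without Control shRNA replicate 2 (adjusted p = 0.0547), and that of HOXB5 without either control library (adjusted p = 0.233 and 0.252) or USP47 shRNA replicate 1 (adjusted p = 0.0963), with the size factors of DESeq2 (0.0501) and without a filter on low counts (0.0532).

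In the HOXD cluster all 7 tested genes had log2 fold changes below 0 under each scaling tried, with HOXD3 alone turning to 0.15 when USP47 shRNA replicate 1 was left out, and the 4 neighbours HOXD8, HOXD9, HOXD10 and HOXD11 fell. HOXD9 (chr2:176987447-176989665, plus strand), a gene of trunk and limb, was at 11.97 and 14.7 CPM in the control and 7.26 and 7.66 CPM in the USP47 shRNA libraries. The groups were apart, and HOXD9 fell to 0.557 of its control level (log2 fold change -0.84, SE 0.169, adjusted p = 0.0101). HOXD10 (chr2:176973518-176984665, plus strand) was at 29.4 and 32.8 CPM in the control and 19.4 and 21.8 CPM in the USP47 shRNA libraries. Its groups did not overlap, and its log2 fold change was -0.60 (SE 0.140, adjusted p = 0.0184). HOXD11 (chr2:176968944-176974482, plus strand), a gene of the forearm and kidney, was at 10.8 and 10.7 CPM in the control and 7.21 and 6.69 CPM in the USP47 shRNA libraries, a log2 fold change of -0.62 (SE 0.160, adjusted p = 0.0275). HOXD8 (chr2:176994422-176997423, plus strand) was at 8.02 and 7.75 CPM in the control and 4.81 and 5.64 CPM in the USP47 shRNA libraries, a log2 fold change of -0.60 (SE 0.178, adjusted p = 0.0448). Both groups were apart for HOXD11 and for HOXD8 as well. On the posterior flank, HOXD12 (-0.69, adjusted p = 0.124) and HOXD13 (-0.27, adjusted p = 0.217) did not pass the threshold, although both knockdown libraries were below both controls for each. HOXD3, on the anterior side, overlapped between the groups (-0.04, adjusted p = 0.902). Leaving out Control shRNA replicate 2 ended all 4 calls (adjusted p = 0.22 for HOXD8, 0.13 for HOXD9, 0.224 for HOXD10 and 0.18 for HOXD11). Leaving out Control shRNA replicate 1 ended those of HOXD8, HOXD10 and HOXD11 (0.302, 0.107 and 0.23), and leaving out USP47 shRNA replicate 1 that of HOXD8 (0.0687).

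The HOXA cluster had changes in both directions among its anterior and central genes. HOXA2 (chr7:27139973-27142305, minus strand), a gene of the hindbrain and pharyngeal arches, was at 2.30 and 2.14 CPM in the control and 1.01 and 1.05 CPM in the USP47 shRNA libraries. These values were tight within each group, and HOXA2 fell to 0.464 of its control level (log2 fold change -1.11, SE 0.277, adjusted p = 0.0242). HOXA5 (chr7:27180671-27183300, minus strand), known from lung and airway development, was at 2.48 and 2.65 CPM in the control and 4.42 and 4.39 CPM in the USP47 shRNA libraries. It rose 1.72-fold with no overlap (log2 fold change 0.78, SE 0.207, adjusted p = 0.0302). Both genes were read with few counts, between 15 for HOXA2 in USP47 shRNA replicate 2 and 92 for HOXA5 in USP47 shRNA replicate 1. HOXA4 (0.72, adjusted p = 0.0913) and HOXA6 (0.61, adjusted p = 0.184), on either side of HOXA5, had values above 0 without passing the threshold. The posterior HOXA genes did not pass it either. HOXA13 was at 173 and 169 CPM in the control and 127 and 151 CPM in the USP47 shRNA libraries, without overlap (log2 fold change -0.30, SE 0.136, adjusted p = 0.162). HOXA11 was at 15.9 and 16.7 CPM in the control and 17.3 and 23.5 CPM in the USP47 shRNA libraries, also without overlap (0.32, adjusted p = 0.222). The calls of HOXA2 and HOXA5 were lost without either control library (adjusted p = 0.139 and 0.0933 for HOXA2, 0.249 and 0.171 for HOXA5). With library size in place of TMM, HOXA5 did not pass (0.72, adjusted p = 0.0672).

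In the HOXC cluster 1 of 8 tested genes was called, HOXC6, and none fell (edgeR; 1 at an unadjusted p under 0.05, and 0 with DESeq2). HOXC6 (chr12:54384408-54424607, plus strand) was at 32.0 and 32.2 CPM in the control and 41.6 and 47.5 CPM in the USP47 shRNA libraries. The groups were apart, and HOXC6 rose 1.39-fold (log2 fold change 0.47, SE 0.131, adjusted p = 0.0356). It took rank 3 of the HOX genes by TPM after knockdown, from rank 5 in control cells. The other 7 tested HOXC genes had log2 fold changes between -0.52 for HOXC5 (adjusted p = 0.107) and 0.32 for HOXC11 (adjusted p = 0.146). HOXC10 was at 36.9 and 38.9 CPM in the control and 39.2 and 49.4 CPM in the USP47 shRNA libraries, with the second replicate well above the rest (0.22, adjusted p = 0.314). HOXC13 was at 13.9 and 13.7 CPM in the control and 9.38 and 13.6 CPM in the USP47 shRNA libraries, where only the first replicate stood low (-0.28, adjusted p = 0.334). HOXC4 fell on both sides of its controls, at 7.98 CPM in USP47 shRNA replicate 1 and 13.6 CPM in replicate 2, against 8.84 and 9.28 CPM. The call of HOXC6 was lost without either control library (adjusted p = 0.355 and 0.285), with library size in place of TMM (0.0595) and without a filter on low counts (0.0615).

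**Figure D3:**
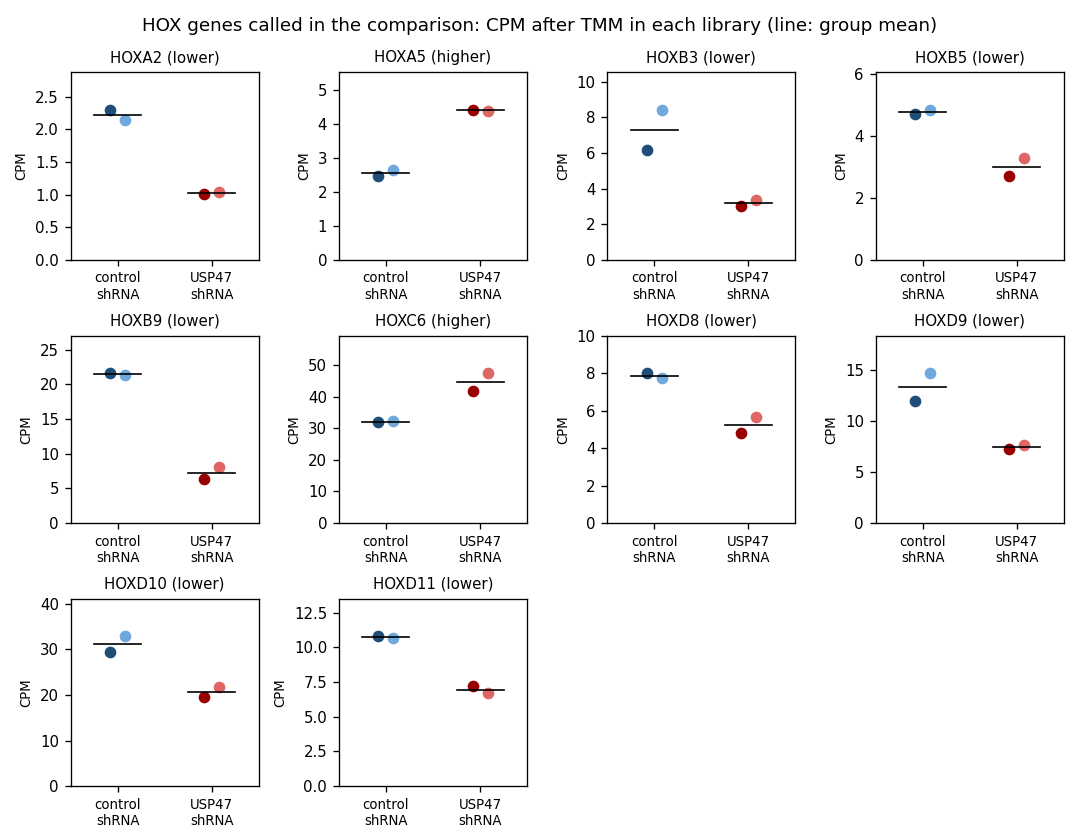
CPM after TMM in each library for 10 HOX genes called in the comparison, with replicate 1 in the darker and replicate 2 in the lighter shade and a line at each group mean, on axes that start at 0. In none of the 10 panels do the control and USP47 shRNA points overlap, and HOXB9 goes from 21.6 and 21.3 CPM to 6.35 and 8.01 CPM.

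By paralog number, the group 9 genes moved together in sign: HOXA9, HOXB9, HOXC9 and HOXD9 had both knockdown libraries below both controls, with HOXB9 and HOXD9 called lower. Their summed CPM was 42.9 and 45.1 in the control and 21.1 and 23.3 in the USP47 shRNA libraries. HOXA9 (-0.55, adjusted p = 0.185) and HOXC9 (-0.19, adjusted p = 0.482) did not pass the threshold. The 3 tested genes of group 8 also had both knockdown libraries below both controls, with only HOXD8 called. All tested genes of groups 3 and 7 had log2 fold changes below 0 too, some with overlap between the libraries. The genes of groups 4, 5, 6, 10, 11 and 13 differed in sign from one cluster to another. Of all 34 tested HOX genes, 24 were below 0, so a shared sign was common. Both knockdown libraries lay below both controls for 20 of the 34, beside 31.7% of all genes tested, so this too was common. In group 5, HOXA5 rose and HOXB5 fell. By position, 2 of 5 tested anterior genes fell, 2 of 14 central genes fell and 2 rose, and 4 of 15 posterior genes fell and 0 rose (edgeR; beside 9.56% lower and 6.52% higher of all genes tested). At an unadjusted p under 0.05, 1 posterior gene was higher, and 0 by DESeq2's adjusted p.

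The division of the summed HOX TPM between the clusters moved accordingly. HOXB held 16.7% and 17.4% of it in the control and 13.9% and 13.8% in the USP47 shRNA libraries. HOXD held 21.5% and 22.1% in the control and 17.6% and 16.4% in the USP47 shRNA libraries. HOXC held 29.6% and 29.5% in the control and 35.6% and 37.0% in the USP47 shRNA libraries. These 3 shares did not overlap between the groups, with HOXB and HOXD lower and HOXC higher after knockdown. The summed HOXC TPM itself overlapped, at 71.3 and 65.7 TPM with Control shRNA and 72.7 and 66.9 TPM with USP47 shRNA. In CPM the HOXC sum was higher after knockdown without overlap, at 131.8 and 137.4 CPM against 138.9 and 169.5 CPM. The sums of HOXB (40.3 and 38.7 against 28.3 and 24.96 TPM) and HOXD (52.0 and 49.2 against 36.0 and 29.7 TPM) were lower after knockdown without overlap. So was the sum of HOXA, at 77.78 and 69.15 against 67.18 and 59.38 TPM. In CPM these 3 sums were also lower without overlap. HOXA was at 214 and 213.6 against 172.7 and 205 CPM, with USP47 shRNA replicate 2 close to the controls. HOXB was at 73.46 and 81.96 against 50.49 and 59.3 CPM, and HOXD at 92.15 and 98.37 against 64.3 and 71.83 CPM. HOXA held 32.2% and 31.1% in the control and 32.9% and 32.8% in the USP47 shRNA libraries. These shares did not overlap either, but their difference was about as small as that between the controls. The posterior genes held 73.2% and 72.3% in the control and 69.0% and 69.2% in the USP47 shRNA libraries, so that posterior genes still made up most of the HOX signal. With 2 libraries against 2, an exact two-sided permutation test cannot go below p = 0.333, and no p-value is given for these shares, which sum to 100% and are not independent of one another. The HOX total was lower after knockdown without overlap in TPM and in CPM, and only the size of the difference depended on the unit. It was 241 and 223 TPM in the control and 204 and 181 TPM in the USP47 shRNA libraries. In CPM it was 512 and 531 against 426 and 506.

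**Figure D4:**
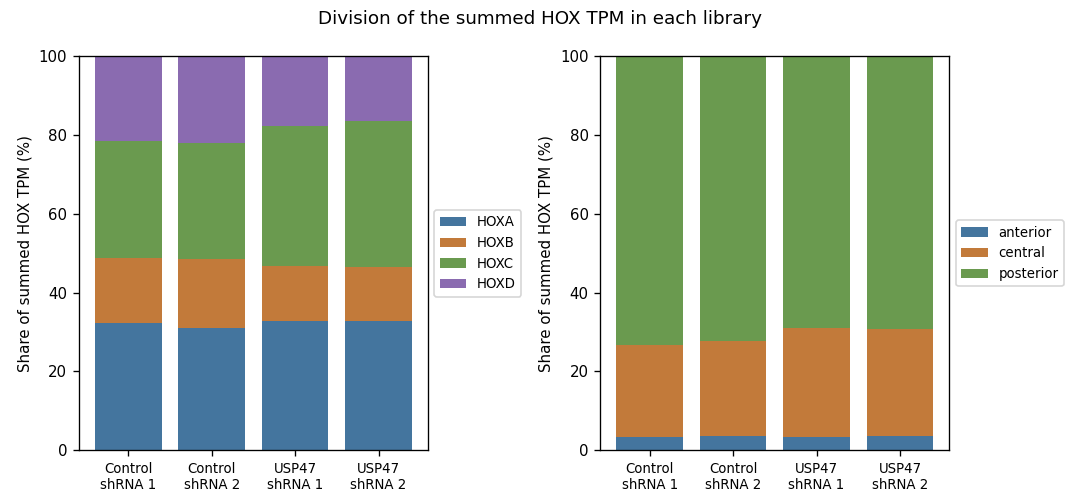
Division of the summed HOX TPM in each library, in percent, by cluster in the left panel and by position (anterior, central, posterior) in the right panel. The share of HOXC goes from 29.6% and 29.5% to 35.6% and 37.0% while its summed TPM overlaps between the groups, the shares of HOXB and HOXD are lower, and the posterior share stays the largest in all 4 libraries.

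Promoter sequence was looked at for the called HOX genes that the RefSeq promoter table (GRCh38.p14) holds, to show the DNA next to the starts of genes that moved together. The table matched 20 of the 39 HOX genes with 27 annotated starts, and among the called genes it matched HOXA2, HOXD8, HOXD10 and HOXD11, all of which fell. The 250 bases upstream of each start are given 5′ to 3′ on the strand of the gene, at chr7:27102684-27102933 (minus strand) for HOXA2, chr2:176129455-176129704 (plus strand) for HOXD8, chr2:176116528-176116777 (plus strand) for HOXD10 and chr2:176107030-176107279 (plus strand) for HOXD11. Capitals mark a match to TGATNNAT, a composite site of PBX and HOX proteins, searched on both strands.
HOXA2: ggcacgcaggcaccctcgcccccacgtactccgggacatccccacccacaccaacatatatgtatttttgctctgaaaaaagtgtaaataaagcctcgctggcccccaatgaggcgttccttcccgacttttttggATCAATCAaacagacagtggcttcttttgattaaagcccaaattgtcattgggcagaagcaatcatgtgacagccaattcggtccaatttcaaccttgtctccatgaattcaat
HOXD8: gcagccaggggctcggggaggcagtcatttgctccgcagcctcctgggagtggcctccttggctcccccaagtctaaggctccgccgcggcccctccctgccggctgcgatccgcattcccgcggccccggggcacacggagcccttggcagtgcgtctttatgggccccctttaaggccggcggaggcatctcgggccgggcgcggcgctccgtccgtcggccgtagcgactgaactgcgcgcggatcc
HOXD10: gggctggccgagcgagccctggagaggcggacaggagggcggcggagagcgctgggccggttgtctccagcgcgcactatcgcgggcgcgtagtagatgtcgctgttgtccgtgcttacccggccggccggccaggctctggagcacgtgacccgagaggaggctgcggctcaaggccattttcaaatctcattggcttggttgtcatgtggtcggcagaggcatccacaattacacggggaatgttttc
HOXD11: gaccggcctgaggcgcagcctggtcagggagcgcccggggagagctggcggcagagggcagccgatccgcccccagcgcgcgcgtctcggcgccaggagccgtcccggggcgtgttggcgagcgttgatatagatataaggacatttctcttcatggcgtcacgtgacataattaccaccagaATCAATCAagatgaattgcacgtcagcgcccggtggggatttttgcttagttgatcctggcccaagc
HOXA2 and HOXD11 carried the same letters, ATCAATCA, starting 114 and 67 bases upstream of the start, and HOXD8 and HOXD10 had no match in this window. The word was in 3 of the 27 HOX promoters (HOXA2, HOXB1 and HOXD11) and in 6.47% of 35114 promoters of the same length. CAGGTG, the E-box bound by Snail-type repressors, was in 1 HOX promoter (HOXA7) and in 17.5% of all. TATAAA was in 5 HOX promoters and in 10.7% of all (both words searched on both strands), and none of the 4 sequences shown held it or CAGGTG. HOX promoters were rich in CpG, with a median of 19 CpG in 250 bases against 11 over all promoters, and the windows of HOXD8, HOXD10 and HOXD11 held 28, 23 and 23, against 8 for HOXA2. These matches describe letters and do not show binding.

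Many HOX genes share exons with a neighbour on the same strand or with an RNA gene on the opposite strand. Reads from exons shared on 1 strand cannot be assigned to either gene by strand, and those from opposite strands only if the counting used strand, which is not given in the sources used here. Of the 39 HOX genes, 14 had no exon overlap with another gene on either strand, 11 of these were tested, and 3 of them fell (HOXA2, HOXB9 and HOXD9) and 1 rose (HOXA5). The exons of HOXD10 and HOXD11 overlapped each other on the same strand over 18.2% and 21.4% of their length. HOXB3 shared 6.4% of its exon bases with HOXB4 and HOXB6, and HOXC6 shared 16.1% with HOXC4, HOXC9 and a further identifier. On the opposite strand, HOXD-AS2 covered 24.4% of HOXD8 exons and HOXB-AS3 covered 3.9% of HOXB5 exons. HOXA11-AS covered 27.2% of HOXA11 exons. Opposite-strand RNAs also covered 5.3% of HOXB3 and 2.1% of HOXC6 exons. These are shares of exon bases, and how far the overlaps changed the counts was not tested.

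The 14 tested antisense and intergenic RNA genes of the clusters had log2 fold changes from -1.26 to -0.03, below 0 under each scaling tried. Of these 2 fell and 0 rose by edgeR, with 4 lower and 0 higher at an unadjusted p under 0.05, and 1 lower and 0 higher by DESeq2. The share that fell by edgeR was near that of all genes tested (9.56% lower, 6.52% higher). HOTAIR, an RNA transcribed antisense to the genes of the HOXC cluster, was at 25.9 and 22.7 CPM in the control and 15.1 and 15.0 CPM in the USP47 shRNA libraries, a log2 fold change of -0.69 (SE 0.143, adjusted p = 0.0112). HAGLR, an RNA of the HOXD cluster, overlaps exons of HOXD1 and HOXD3 on the opposite strand. It was at 1.83 and 2.14 CPM in the control and 0.769 and 0.906 CPM in the USP47 shRNA libraries. Its log2 fold change was -1.26 (SE 0.302, adjusted p = 0.0204). Both knockdown values were below both controls for each of these RNAs. The RNAs that overlap called HOX genes did not pass the threshold themselves: HOXD-AS2 was at -0.30 (adjusted p = 0.324), HOXB-AS3 at -0.53 (adjusted p = 0.107) and HOXC-AS2 at -0.03 (adjusted p = 0.933). HOTTIP, next to HOXA13, was at 160 and 153 CPM in the control and 106 and 139 CPM in the USP47 shRNA libraries (-0.36, adjusted p = 0.132), and HOXA11-AS was at -0.27 (adjusted p = 0.255) where HOXA11 was at 0.32.

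Genes beside the clusters and homeobox genes related to them were taken as a list of 23, of which 14 were tested, 5 fell and 1 rose (beside 9.56% and 6.52% of all genes tested). CBX5, which encodes the heterochromatin protein HP1 alpha and lies beyond the HOXC4 end of its cluster, was at 877 and 893 CPM in the control and 413 and 470 CPM in the USP47 shRNA libraries (log2 fold change -1.003, SE 0.145, adjusted p = 0.00238). PRAC1, between HOXB9 and HOXB13, was at 11.4 and 13.7 CPM in the control and 5.39 and 6.41 CPM in the USP47 shRNA libraries (-1.10, SE 0.178, adjusted p = 0.00396). PRAC1 and its neighbour PRAC2 (-0.97, adjusted p = 0.0132) thus fell beside HOXB9, while HOXB13, on their other side, was at 0.18 (adjusted p = 0.468). SNX10, on the anterior side of the HOXA cluster, was at 10.0 and 11.6 CPM in the control and 5.87 and 4.88 CPM in the USP47 shRNA libraries (-0.998, SE 0.179, adjusted p = 0.00621). SKAP2, also on that side, was at -0.48 (adjusted p = 0.0292). MTX2, beyond the HOXD1 end of its cluster, was the gene of this list that rose (0.55, adjusted p = 0.0198), next to a cluster in which all tested genes were below 0.

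**Figure D5:**
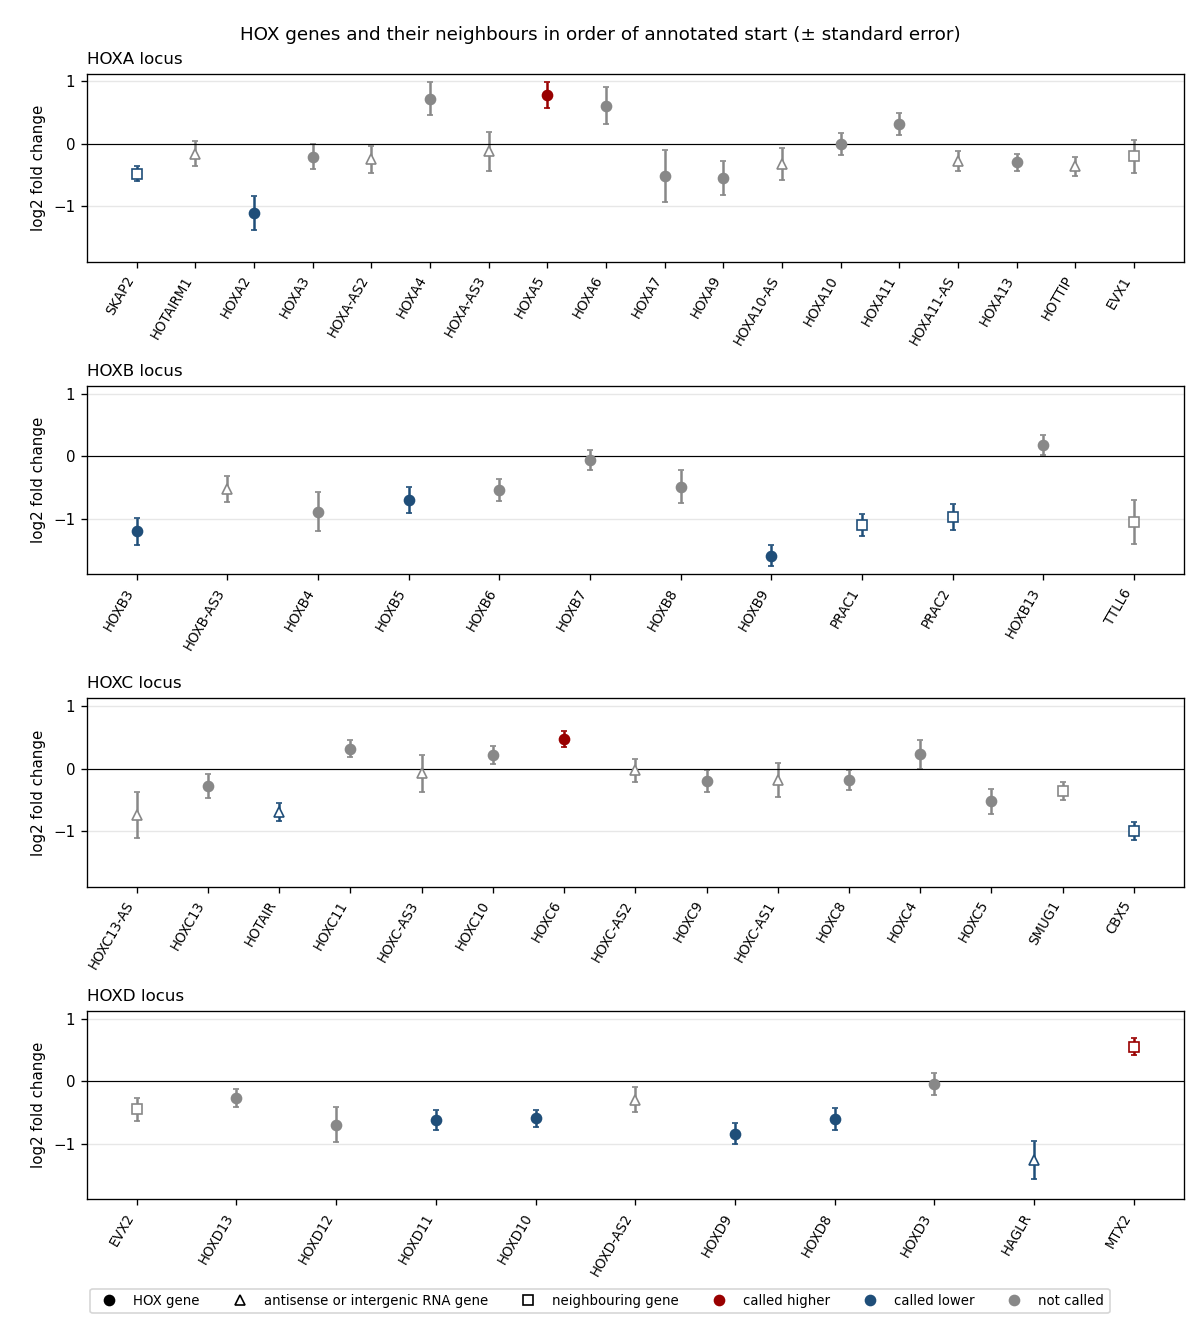
Log2 fold change with bars of 1 standard error for tested HOX genes (filled circles), antisense and intergenic RNA genes (open triangles) and neighbouring genes (open squares) of each cluster, in order of annotated start and not to scale in distance. Around HOXB9 (-1.59), PRAC1 (-1.10) and PRAC2 (-0.97) are also lower while HOXB13 (0.18) is not, and MTX2 (0.55) lies above 0 beside HOXD genes that lie below it.

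Genes of the HOX machinery were counted in lists of TALE cofactors, Polycomb complexes, MLL and trithorax activators and the retinoic acid pathway, which sets HOX expression in the embryo. Of 9 TALE cofactors tested with edgeR, 3 fell and 0 rose (1 higher at an unadjusted p under 0.05, 0 by DESeq2). MEIS3 was at 6.72 and 6.22 CPM in the control and 2.02 and 2.51 CPM in the USP47 shRNA libraries (log2 fold change -1.53, SE 0.210, adjusted p = 0.00195). PKNOX2 (-0.91, adjusted p = 0.00452) and MEIS1 (-0.48, adjusted p = 0.0281) fell by less. Of 12 genes of Polycomb repressive complex 2, 0 fell (0 at an unadjusted p under 0.05 and 0 by DESeq2) and 2 rose, namely LCOR, the gene from which the accessory subunit PALI1 derives (0.75, adjusted p = 0.00619), and JARID2, an accessory subunit (0.50, adjusted p = 0.0267). SUZ12, a core subunit, was at 0.34 (adjusted p = 0.136). Of 19 genes of Polycomb repressive complex 1, 3 fell and 0 rose (4 higher at an unadjusted p under 0.05, 0 by DESeq2). Those that fell were SCMH1 (-0.80, adjusted p = 0.00401), PHC1 (-0.84, adjusted p = 0.00517) and BMI1 (-0.64, adjusted p = 0.0145).

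Of 16 MLL and trithorax genes tested, 1 rose and 1 fell by edgeR, whereas DESeq2 called 2 higher and 0 lower (edgeR at an unadjusted p under 0.05, 5 higher and 1 lower). KDM6B, a demethylase that removes the Polycomb mark, rose (0.69, adjusted p = 0.0098), and ASH2L, a core subunit of the MLL complexes, fell (-0.44, adjusted p = 0.0359). KMT2D, a methyltransferase, was at 0.47 (adjusted p = 0.0513). Of 12 retinoic acid genes tested, 2 rose and 2 fell. CYP26B1, which degrades retinoic acid, was at 1.24 and 1.33 CPM in the control and 6.30 and 6.41 CPM in the USP47 shRNA libraries, a log2 fold change of 2.30 (SE 0.220, adjusted p = 0.00048). RDH10, an enzyme of retinoic acid synthesis, rose as well (1.16, adjusted p = 0.000911), whereas STRA6, the retinol transporter, fell (-0.83, adjusted p = 0.00797), as did ALDH1A1, a further enzyme of the synthesis (-0.89, adjusted p = 0.0137). These counts stand beside the background of 9.56% lower and 6.52% higher, and the lists themselves were not tested against it.

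Markers of other cell types were read beside the HOX result. The summed TPM of the 8 mesenchymal markers was between 342 and 384 in the control and between 273 and 290 in the USP47 shRNA libraries, with 3 of 8 called lower (FN1, COL1A1 and COL1A2) and CDH2 near 0 in all libraries. The sum of the 14 epithelial markers overlapped, between 10.9 and 12.5 TPM in the control and between 10.1 and 16.6 TPM in the USP47 shRNA libraries, with EPCAM called lower from 0.409 and 0.286 TPM. The part of the mesenchymal markers in the HOX result was not tested. PTPRC (CD45) was at or under 0.0922 TPM and CDH5 at or under 0.0219 TPM in every library, so that defining leukocyte and endothelial markers were near 0, and of the erythroid markers HBA1 and HBA2 were read (42.6 and 28.7 TPM in Control shRNA replicate 1) while HBB was near 0.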

How the data were processed

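RNA-Seq of HGC-27 cells was taken from 4 libraries, 2 Control shRNA and 2 USP47 shRNA, grouped by the submitters' labels. For each library the authors deposited gene counts without normalization, and beside them FPKM and TPM, both computed by the authors. Per the methods, bases of low quality were trimmed, STAR 2.7.5c mapped the reads to hg19, and SAMtools 1.9 took out duplicates and low-quality reads, which without molecular identifiers can compress the differences of abundant genes. The submitters' processing notes also name featureCounts. The annotation and strand setting of the counting are not given in the sources used here, and the labels and methods name different library kits. Totals of 15649899 to 20140273 counts set the precision, which is low for HOX genes with fewer than about 100 counts.

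Counts were tested with edgeR 4.0.16 in R 4.3.3 (TMM, filterByExpr, robust quasi-likelihood fit, both directions, Benjamini-Hochberg over 21932 genes, adjusted p under 0.05). Standard errors were computed as |log2 fold change|/√F. The procedure was tested on simulated data. TPM served to compare levels between genes, and for the sums, shares and ranks that were set side by side between libraries. No test was run on TPM, and FPKM was not used. One unnamed identifier took between 20.8% and 24.1% of the TPM of a library, which lowers the TPM of all other genes. Symbols were found for 55665 of 63568 identifiers. Positions and exon overlaps came from GENCODE release 44 lifted to GRCh37 (hg19), and promoters from RefSeq. Values per library were given for the called HOX genes (1 HOX gene and 1 marker are not reported here) and the 10 with the highest control TPM, and up to 3 genes of the smallest p were named for each other list, besides the RNA genes whose exons overlap a HOX gene given in full; PRAC2, SKAP2, MTX2 and ALDH1A1 were named after their values were seen. The HOX genes and the lists were chosen with earlier results of these data known. Alternatives were DESeq2 1.42.0, other scalings and count filters, a replicate block, leaving out each library, leaving out HOX genes with exon overlap, and other TPM thresholds. The leaving out of genes overlapped on either strand was added after the data were seen.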

Additional observations from a re-analysis of the deposited data

How the results depend on the processing

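USP47 stayed lower and called under every alternative. The HOX genes called higher were 1 with DESeq2, 0 with library size alone (3 at an unadjusted p under 0.05), 1 among genes free of exon overlap on the opposite or on either strand, and between 0 and 7 when a library was left out. The HOX genes called lower were 4 with DESeq2, 5 without opposite-strand and 3 without either-strand overlap, and between 1 and 14 when a library was left out. With DESeq2, 12.5% of HOX genes were lower beside 6.75% of all genes, and 3.12% were higher beside 6.42%. With library size alone, 23.5% were lower beside 8.75%, and 0% higher beside 4.02%. Fewer genes enter the overlap counts by construction, and the cause of the other changes was not tested. The median log2 fold change was -0.18 with DESeq2, -0.35 with library size alone, and between -0.37 and -0.14 when a library was left out. DESeq2 gave 7 of the 39 HOX genes no adjusted p. Over all genes, 3527 were called (40.5% higher), 2284 with DESeq2 (48.7% higher), 2801 with library size alone (31.5% higher), and between 1233 and 7272 when a library was left out.

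Replicates share a number, and no source says that it pairs the libraries. Deviations of equally numbered libraries correlated at 0.325 over genes. With the replicate block, 12 HOX genes were lower (35.3% beside 17.7% of all genes tested) and 6 higher (17.6% beside 16.1%). In all, 7419 genes were called.

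The sign of HOXA10 turned to 0.018 with DESeq2, 0.013 with its size factors and 0.006 with the block. When a library was left out, log2 fold changes went from -0.11 to 0.12 for HOXA10, -0.17 to 0.068 for HOXB7, -0.18 to 0.59 for HOXC4 (high without USP47 shRNA replicate 1, when it was called) and -0.22 to 0.15 for HOXD3. None of these genes was called with all libraries. At 5 TPM, 14 HOX genes passed. Shares of summed counts in control and knockdown were 41.0% and 40.5% for HOXA, 14.9% and 11.8% for HOXB, 25.8% and 33.1% for HOXC, and 18.3% and 14.6% for HOXD, the same directions for HOXB, HOXC and HOXD.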
